A study of Homo sapiens with 4 samples.

Results

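The transcripts of 3 tight junction genes, CGN, CLDN2 and ESAM, were followed in 2 human gastric cancer cell lines with and without isorhamnetin (ISO), a plant flavonoid. They were taken by symbol from a deposited table of 2897 genes, and were chosen by their FPKM values in the 4 libraries, so their levels and changes are given as a description, without a test. In the controls all 3 were far higher in AGS-1 than in HGC-27, and all 3 fell at least 2-fold in AGS-1 cells under ISO. With ISO, ESAM was 2.40-fold higher in AGS-1 than in HGC-27. In HGC-27 none of them was lower with ISO.

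The study asked which transcripts change when gastric cancer cells are exposed to ISO. The labels give 4 RNA samples, 1 library per group, and the groups were AGS-1 control, AGS-1 with ISO, HGC-27 control and HGC-27 with ISO. AGS-1 (labelled AGS for its cell line) and HGC-27 are both established lines of human gastric carcinoma. The controls were untreated, and the treated cells received 50 μM ISO for 24 h according to the labels, although the text of the study states another dose. The study's text speaks of duplicates, and whether a deposited value pools them is not stated. No allele, transgene or sorting was named for any of the libraries. With 1 library per group, no spread between cultures could be measured within a line.

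The tight junction is the uppermost seal between epithelial cells, where rows of membrane proteins of neighbouring cells meet and limit what passes between them. Claudins form the strands of the seal, immunoglobulin-type adhesion molecules stand beside them, and a cytoplasmic plaque ties both to the actin and myosin belt under the membrane. CGN encodes cingulin, a plaque protein that binds ZO proteins and myosin. CLDN2 encodes claudin-2, a claudin that forms pores for small cations and water and is typical of leaky epithelia. ESAM encodes endothelial cell adhesion molecule, best known from the junctions of endothelial cells and from platelets.

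The 3 genes lie on different chromosomes. In the coordinates of the table, CGN (ENSG00000143375) occupies chr1:151510510-151538692 on the plus strand, CLDN2 (ENSG00000165376) occupies chrX:106900164-106930861 on the plus strand, and ESAM (ENSG00000149564) occupies chr11:124752583-124762290 on the minus strand. Each had the same start and end in GENCODE 29, an annotation of GRCh38. That annotation lists 8 transcripts of CGN, 5 of them protein-coding, 3 of CLDN2, all protein-coding, and 6 of ESAM, 3 of them protein-coding. The table gives 1 value per gene and does not separate these transcripts.

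The sequences upstream of the RefSeq starts are shown because CGN and CLDN2 fell together in AGS-1 and differed in these windows. RefSeq (GRCh38.p14) promoter entries were found for 2 of the 3 genes, CGN and CLDN2. Each window is written 5′ to 3′ on the strand of the gene, which is the plus strand in each case. Windows of 250 bases end at the base before the RefSeq start of CGN (chr1:151511137-151511386) and before the second RefSeq start of CLDN2 (chrX:106918110-106918359). Both lie inside the gene spans given above, past the GENCODE 29 gene starts and outside annotated exons. The window at the first CLDN2 start (chrX:106899914-106900062) holds 149 bases and stops short of that start, because it was ended before an exon of the neighbouring gene RIPPLY1. Capitals mark matches to GGGCGG or to its reverse complement CCGCCC, the GC box read by SP factors.
CGN: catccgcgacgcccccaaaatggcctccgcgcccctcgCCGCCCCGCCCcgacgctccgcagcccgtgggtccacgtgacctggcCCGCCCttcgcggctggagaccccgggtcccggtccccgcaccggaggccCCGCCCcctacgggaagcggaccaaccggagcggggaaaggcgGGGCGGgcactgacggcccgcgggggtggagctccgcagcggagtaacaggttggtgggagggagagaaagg
CLDN2 first start: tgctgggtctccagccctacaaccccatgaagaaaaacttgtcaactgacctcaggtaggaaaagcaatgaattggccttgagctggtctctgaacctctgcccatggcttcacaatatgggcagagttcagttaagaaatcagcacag
CLDN2 second start: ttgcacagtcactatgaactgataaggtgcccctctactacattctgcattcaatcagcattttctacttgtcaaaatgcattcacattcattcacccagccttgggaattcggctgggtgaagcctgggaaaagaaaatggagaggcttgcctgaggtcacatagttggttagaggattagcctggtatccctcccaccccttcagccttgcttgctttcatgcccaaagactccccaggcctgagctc
The CGN window was rich in G and C (76%), higher than 91.3% of the promoter windows of the same length, and held 32 CpG dinucleotides. It held 5 GC boxes, of which the first and second overlapped by 1 base. At least 1 GC box, counting both strands, was present in 42.6% of 250-base and 25.6% of 149-base windows. The CLDN2 windows were near even in base composition, with 48.3% and 48.8% G and C, and held 0 and 1 CpG dinucleotides. They contained no match to GGGCGG, to CAGGTG (an E-box read by SNAI and ZEB repressors, in 17.5% of 250-base and 11.5% of 149-base windows), to TGANTCA (the AP-1 element, in 6.57% and 3.73%) or to TTTAT (the core read by CDX factors, in 32.7% and 23.5%), on either strand. CGN had no match to the last 3 of these either. A missing match says only that these letters are not in these windows.

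Levels are given as fragments per kilobase of gene length and per library size (FPKM), the unit deposited by the authors, so that they can be compared between genes of different length. In each library 100% of the FPKM values, once multiplied by gene length, were whole steps of a single size (within 0.01), so the fragments behind each value could be read back. Libraries held between 15235004 and 20199425 fragments. Intervals are exact Poisson intervals, or exact binomial intervals for a ratio, at 95%, and cover counting error only. Of the genes in the table, 98.1% averaged at least 10 FPKM over the 4 libraries. CGN, CLDN2 and ESAM, with means of 31.9, 27.9 and 11.4 FPKM, were below 10 FPKM in both HGC-27 libraries and owe those means to AGS-1, so a higher level in AGS-1 is in part built into the choice of listed genes. ESAM had 1 of the lowest means of the table, with 69 genes under it. In bulk RNA, fewer cells expressing a gene and less RNA per cell cannot be told apart.

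CGN had the highest value of the 3 genes in each library. It stood at 87.4 FPKM (85.5 to 89.2, 8805 fragments) in the AGS-1 control and at 31.4 FPKM (30.4 to 32.5, 3318 fragments) with ISO. In HGC-27 it stood at 4.43 FPKM (4.08 to 4.80, 592 fragments) in the control and at 4.58 FPKM (4.19 to 4.99, 517 fragments) with ISO. Both AGS-1 libraries were thus well above both HGC-27 libraries, and the HGC-27 pair overlapped in its counting intervals. Under ISO the AGS-1 level fell to 36.0% of the control (34.6 to 37.4), a 2.78-fold decrease, with a log2 ratio of FPKM + 1 of −1.45 (−1.50 to −1.39). In HGC-27 the level with ISO was 103% of the control (91.6 to 116), a log2 ratio of 0.04 whose interval (−0.10 to 0.18) includes no change.

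CLDN2 was near the level of CGN in the AGS-1 control and was barely detected in the HGC-27 libraries. The AGS-1 control held 86.0 FPKM (83.5 to 88.5, 4468 fragments), and the AGS-1 library with ISO held 25.7 FPKM (24.3 to 27.0, 1397 fragments). The HGC-27 control held 0 fragments, for which a floor of 3 fragments was 0.0435 FPKM and the exact upper limit 0.0535 FPKM, and HGC-27 with ISO held 4 fragments or 0.0687 FPKM (0.0187 to 0.176). The intervals of the HGC-27 libraries overlapped, and a difference between them was not detectable at this depth. In AGS-1 the level under ISO fell to 29.9% of the control (28.1 to 31.7), a 3.35-fold decrease and a log2 ratio of −1.71 (−1.79 to −1.62).

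ESAM was the lowest of the 3 genes in AGS-1 and moved most there. It went from 33.5 FPKM (31.8 to 35.3, 1491 fragments) in the AGS-1 control to 7.36 FPKM (6.60 to 8.18, 343 fragments) with ISO. In HGC-27 it went the other way, from 1.63 FPKM (1.32 to 1.99, 96 fragments) to 3.07 FPKM (2.60 to 3.60, 153 fragments). The counting intervals of control and ISO did not overlap in either line. In AGS-1 the level fell to 22.0% of the control (19.5 to 24.7), a 4.55-fold decrease and a log2 ratio of −2.05 (−2.20 to −1.89). In HGC-27 it was 1.89-fold higher with ISO (1.45 to 2.46), a log2 ratio of 0.63 (0.36 to 0.93) that stayed under the 2-fold mark used here for a change. Whether separate cultures would show the HGC-27 difference is not known from 1 library per condition.

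**Figure D1:**
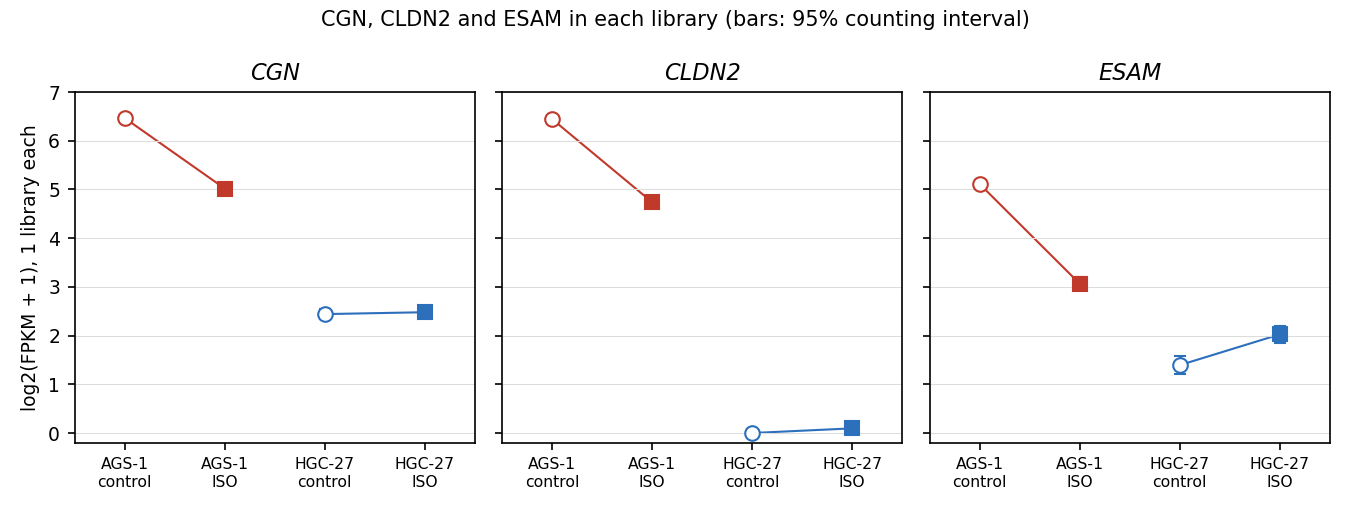
FPKM of CGN, CLDN2 and ESAM in each of the 4 libraries on the log2(FPKM + 1) scale, with 95% counting intervals as bars (1 library per point, open circles for control and filled squares for ISO, lines joining the libraries of a cell line). The AGS-1 points of each gene drop from control to ISO, from 87.4 to 31.4 FPKM for CGN, from 86.0 to 25.7 FPKM for CLDN2 and from 33.5 to 7.36 FPKM for ESAM, while the HGC-27 points lie below 5 FPKM.

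All 3 genes therefore passed the 2-fold mark downward in AGS-1, as did 192 genes of the table (6.63%), and none passed it in HGC-27, where 27 genes (0.932%) fell and 16 (0.552%) rose 2-fold. Rises of 2-fold in AGS-1 were seen for 24 genes (0.828%). These counts follow from how the genes were chosen, and nothing is read from them. By size of the log2 ratio in AGS-1, ESAM was the 10th, CLDN2 the 20th and CGN the 39th largest fall of the table. The listed genes took up 78.5% of the AGS-1 fragments without ISO but 64.4% under ISO. For HGC-27 these shares were 61.0% and 60.0%. The remaining fragments belong to genes outside the table and were not analysed. Medians, counts and rescalings, and the term all genes, therefore refer to the listed genes only. The median gene of the table had a log2 ratio of −0.29 in AGS-1, against −0.11 in HGC-27. Relative to that median the AGS-1 ratios were −1.16 for CGN, −1.42 for CLDN2 and −1.76 for ESAM. With the AGS-1 libraries rescaled by median-of-ratios, 50 genes rose and 72 fell 2-fold in that line instead of 24 and 192, and CGN, CLDN2 and ESAM stayed among the falls, at −1.17, −1.43 and −1.78. With upper-quartile scaling, 60 rose and 45 fell, and the 3 genes were at −1.03, −1.29 and −1.64. For HGC-27 the 16 rises and 27 falls became 26 and 15 with upper-quartile scaling.

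A rank within a library does not depend on such scaling. CGN stood at the 83.3 percentile of the listed genes in the AGS-1 control and at the 58.0 percentile with ISO. CLDN2 moved from the 82.9 to the 47.7 percentile, and ESAM from the middle of the table (49.9) to its lower end (5.38). With ISO, ESAM in AGS-1 thus stood near the rank that it held in HGC-27 (4.14 and 5.35). CGN and CLDN2 in AGS-1 with ISO remained far above their HGC-27 ranks, which were 6.14 and 6.49 for CGN and 0 and 1.07 for CLDN2.

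Levels in the lines differed most for CLDN2. In the controls, CGN was 19.7-fold higher in AGS-1 than in HGC-27 (18.1 to 21.5), ESAM 20.6-fold higher (16.7 to 25.6), and CLDN2 at least 1974.6-fold higher against the floor of 3 fragments in the HGC-27 control library, with an exact lower limit of 1605-fold. With ISO the distance between the lines was smaller for each gene, 6.87-fold (6.26 to 7.55) for CGN, 374-fold (146 to 1373) for CLDN2 and 2.40-fold (1.98 to 2.92) for ESAM. Within the AGS-1 control, CGN and CLDN2 overlapped in their counting intervals, and ESAM was lower. With ISO the order in AGS-1 was CGN, CLDN2, ESAM, and in both HGC-27 libraries it was CGN, ESAM, CLDN2, with intervals that did not overlap.

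The cell type labels bear on these levels. Of 19 epithelial markers written down, 14 were in the table, and their summed level was 3163 FPKM in the AGS-1 control and 2008 FPKM with ISO, against 14.4 and 8.29 FPKM in HGC-27. In the HGC-27 control 10 of the 14 were under 1 FPKM, and KRT19, a keratin of simple epithelia, was at 0 in both HGC-27 libraries. Of 18 mesenchymal markers, 9 were in the table, with sums of 427 and 227 FPKM in AGS-1, against 2247 and 1675 FPKM in HGC-27. VIM, the mesenchymal filament protein vimentin, was under 1 FPKM in both AGS-1 libraries (0.70 and 0.86), where TWIST1 and COL6A2 were at 0. Of the 9, 5 were under 1 FPKM in the AGS-1 control. The others were expressed there, LGALS1 at 343 FPKM, COL6A1 at 38.0, S100A4 at 35.5 and COL1A1 at 9.71 FPKM. In the HGC-27 control these 4 stood at 549, 67.2, 71.3 and 348 FPKM. Many of these markers were listed through the line in which they were high, so the difference between the lines was in part fixed by the choice of listed genes, and it was given no test. CGN, CLDN2 and ESAM were thus low in the line where epithelial markers were low, and the part of that difference in their levels was not tested.

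For ESAM, named after endothelium, endothelial markers were looked up as well. Of 15 such genes, the table held EGFL7, at 0.0256 and 0 FPKM in AGS-1, against 39.2 and 35.0 FPKM in HGC-27. ESAM was higher in the line in which that marker was at or near 0. EGFL7 was listed through HGC-27 and ESAM through AGS-1, so this contrast was in part fixed by the choice of genes. Nothing is read from it. The other 14, PECAM1, CDH5 and VWF among them, were not analysed here. None of 17 gastric lineage markers was among the listed genes, and they were not analysed here either.

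**Figure D2:**
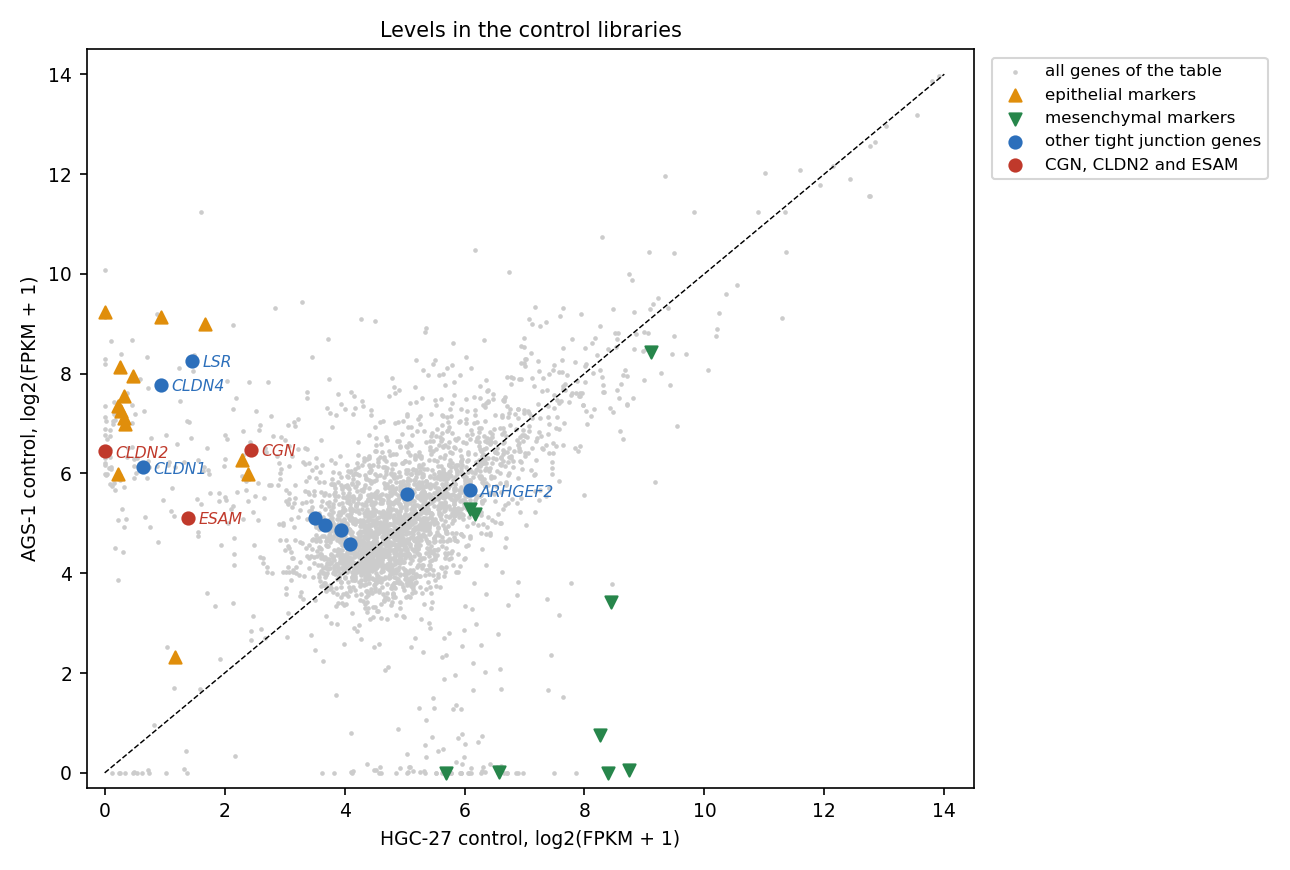
Level of each gene of the table in the HGC-27 control (horizontal axis) and the AGS-1 control (vertical axis), as log2(FPKM + 1), with a dashed line of equal levels and 1 library per axis. CLDN2 lies at the left edge, at 0 FPKM in HGC-27, CLDN1, CLDN4, ESAM, LSR and CGN follow to its right in this order, and the plaque gene ARHGEF2 lies to the right of the line.

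Epithelial markers also moved with the junction genes under ISO in AGS-1. All 14 had a log2 ratio below 0 there (12 with median-of-ratios and 10 with upper-quartile scaling), with a median of −0.57 against −0.29 for all genes. Of all genes 78.6% were below 0 in AGS-1 as deposited, 53.1% with median-of-ratios and 38.8% with upper-quartile scaling. The keratin gene KRT7 of ductal epithelia fell 2-fold (4.02 to 0.533 FPKM), next to 6.63% of all genes. In HGC-27 their median was −0.19, and AP1M2, an adaptor of sorting to the basolateral membrane, fell 2-fold, though not with upper-quartile scaling. With a pseudocount of 0.1 FPKM 5 of the 14, most of them under 1 FPKM, were 2-fold lower there, with a median of −0.45. None of the 14, KRT7 and AP1M2 included, was 2-fold lower in either line with a pseudocount of 5 FPKM. EPCAM, an epithelial adhesion protein, offers a measure within each library. The ratio of CGN to EPCAM in AGS-1 went from 0.352 in the control to 0.189 with ISO, that of CLDN2 from 0.346 to 0.154, and that of ESAM from 0.135 to 0.0442. Each of these ratios was lower with ISO, most so that of ESAM. CGN, CLDN2 and ESAM were chosen by these values, and EPCAM is 1 of the 14 markers, so nothing is read from these ratios. Among mesenchymal markers S100A4, a calcium-binding protein of motile cells, fell 2-fold in AGS-1 (−2.14). It was the gene of that list that limma called for the change shared by both lines (−1.40, limma adjusted p = 0.0388), next to 0.832% of tested genes called lower. With median-of-ratios or upper-quartile scaling no gene was called. Whether the shift of the epithelial markers has a part in the falls was not tested.

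The table held 12 of 72 tight junction genes written down, 9 of them besides CGN, CLDN2 and ESAM. These 9 are what remained once the largest AGS-1 falls among the 12 were set aside. Their counts and medians therefore depend on that choice and are given as a description. In AGS-1, 8 of the 9 had a log2 ratio below 0 (7 with either rescaling of the libraries), next to 78.6% of all genes, with a median of −0.77 against −0.29 for all genes, and 1 fell 2-fold (6.63% of all genes did). In HGC-27, 6 of the 9 were below 0 (5 with upper-quartile scaling), next to 64.2% of all genes, with a median of −0.17 against −0.11, and 1 fell 2-fold (0.932% of all genes did). None rose 2-fold in either line. ARHGEF2 was the gene that fell in AGS-1 and AMOTL2 the gene that fell in HGC-27, and the fall of ARHGEF2 no longer reached 2-fold with either rescaling.

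None of the other listed membrane proteins passed 2-fold in AGS-1. CLDN4, a claudin that tightens the seal, was at 218 FPKM in the AGS-1 control and 225 FPKM with ISO, a log2 ratio of 0.05. CLDN1, a barrier claudin, went from 68.6 to 35.7 FPKM, and LSR, the receptor that marks contacts of 3 cells, from 304 to 201 FPKM, with log2 ratios of −0.92 and −0.60. In HGC-27 the 3 genes were between 0.533 and 1.75 FPKM in both libraries. CLDN4 was 1.86-fold higher there under ISO (1.41 to 2.45), on 88 and 138 fragments. LSR and CLDN1 had log2 ratios of −0.17 and −0.02 in that line, with intervals that include no change. The HGC-27 ratio of ESAM to CLDN4 was 1.76 without ISO and 1.78 under it. A link between the HGC-27 rises of ESAM and CLDN4 was not tested. Shares of the listed claudins in AGS-1 are given as a description. CLDN2 held 23.1% of their summed FPKM in the control and 8.95% with ISO, CLDN1 held 18.4% and 12.5%, and CLDN4 held 58.5% and 78.6%. Against CLDN4 within the same library, CLDN2 stood at 0.395 in the control and 0.114 with ISO, and CGN at 0.401 and 0.140. CLDN2 and CGN were chosen by these values, so the lower share of CLDN2 and both lower ratios follow from that choice. Nothing is read from them. These shares cover the 3 claudins of the table, and other claudins were not analysed here.

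Genes of the listed plaque proteins were expressed in both lines. ARHGEF2, a microtubule-associated protein that cingulin binds at the junction, went from 49.6 to 22.1 FPKM in the AGS-1 pair (log2 ratio −1.13) and from 66.8 to 40.7 FPKM in the HGC-27 pair (−0.70). AMOTL2, an angiomotin that links junctions to YAP, went from 28.3 to 14.8 FPKM in the AGS-1 pair (−0.89) and from 14.4 to 5.39 FPKM in the HGC-27 pair (−1.27). Both genes were thus lower with ISO in both lines, unlike CGN. PRKCI, the atypical kinase of the polarity complex, had log2 ratios of −0.85 and −0.34, and YBX3, a regulator of transcription that binds ZO-1, of −0.64 and −0.62. ARHGEF18, another plaque protein of the list, had −0.77 in AGS-1 but 0.19 in HGC-27. SYMPK, symplekin, a scaffold shared by plaque and RNA processing, had −0.10 and 0.24, of which the AGS-1 ratio turned positive with either rescaling.

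**Figure D3:**
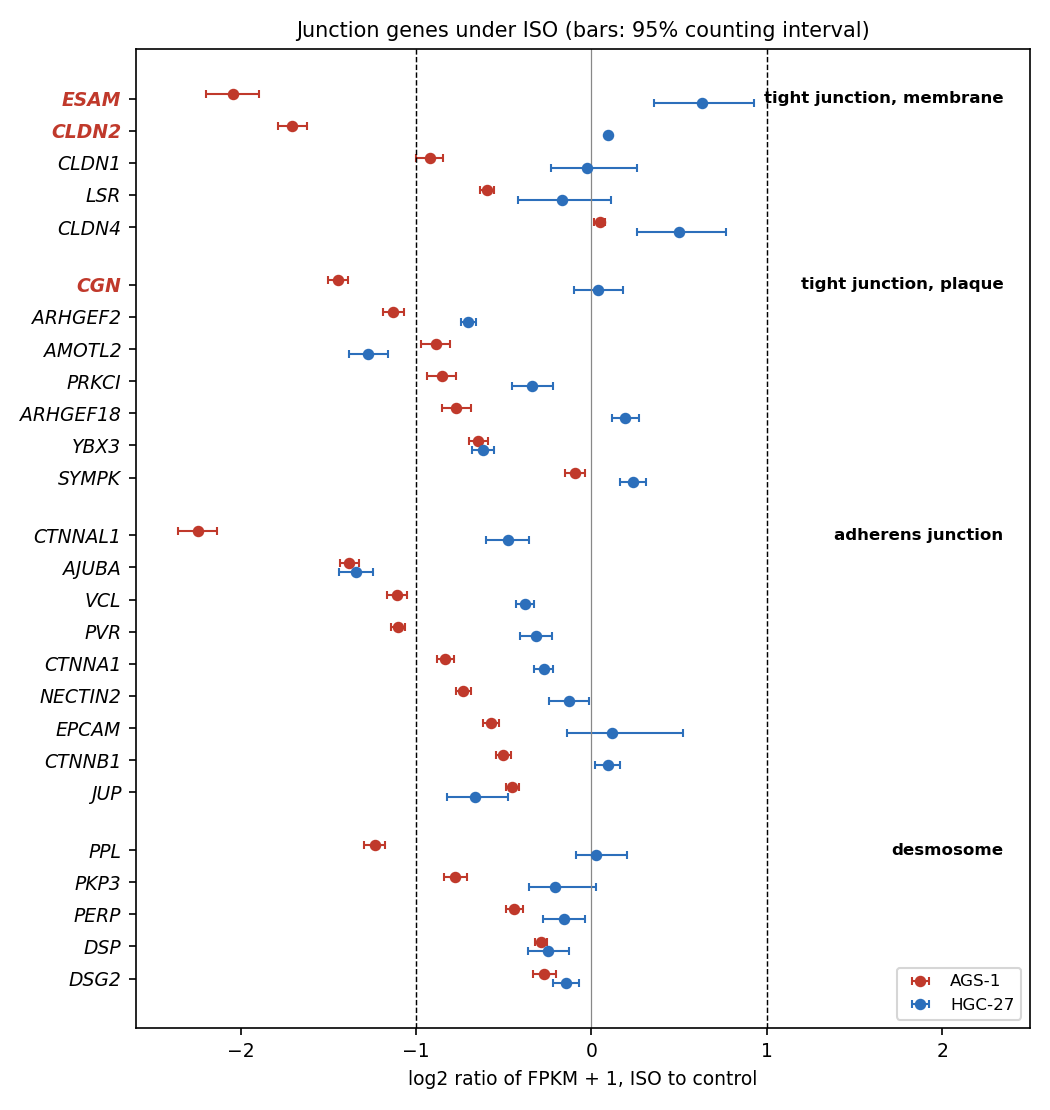
Log2 ratio of FPKM + 1 with ISO to control for the listed tight junction, adherens junction and desmosome genes, AGS-1 in red and HGC-27 in blue, with dashed lines at 2-fold and 95% counting intervals as bars where both libraries held fragments (CLDN2 in HGC-27 has none). Among the 12 tight junction genes the AGS-1 ratios run from −2.05 for ESAM to 0.05 for CLDN4, and those of HGC-27 from −1.27 for AMOTL2 to 0.63 for ESAM.

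A change shared by both lines could be tested with limma across the 2883 genes that averaged at least 1 FPKM, with the cell line in the model. With 2 libraries a treatment this left 1 residual degree of freedom, the difference between the lines in their response to ISO. The lines thus served as replicates of each other. By limma with Benjamini-Hochberg adjustment, 24 genes (0.832%) were lower and 3 (0.104%) higher with ISO. Of the 9 other tight junction genes 1 was called, AMOTL2, at a log2 change of −1.08 ± 0.21 (SE, limma adjusted p = 0.0334) and lower in both lines. ARHGEF2 was close to the threshold (limma adjusted p = 0.0629). With either rescaling of the libraries no gene of the table was called, at 511 genes with an unadjusted limma p under 0.05 for median-of-ratios and 502 for upper-quartile scaling, against 578 as deposited.

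The same model compared the lines, and by it 928 genes (32.2%) were higher and 711 (24.7%) lower in AGS-1. Of the 9 other tight junction genes, 7 were called higher in AGS-1 and 1 lower, and the 7 became 6 with upper-quartile scaling and 5 without treatment in the model. CLDN4, LSR and CLDN1, which were 6.60, 6.58 and 5.03 higher in AGS-1 on the log2 scale, were below 2 FPKM in HGC-27 and are listed through AGS-1, so their calls were in part fixed by the choice of listed genes and nothing is read from them. Of the 6 other plaque genes, PRKCI (1.33), AMOTL2 (1.12), SYMPK (1.11) and YBX3 (0.54) were higher in AGS-1 by limma, YBX3 not with upper-quartile scaling. ARHGEF2 was lower in AGS-1, with a difference of −0.64 (limma adjusted p = 0.0198), and ARHGEF18 was not called, with a difference of 0.01 ± 0.23 (SE, limma adjusted p = 0.968). CGN stood 4.02 higher on this scale in the AGS-1 control and 2.54 higher with ISO, each from 1 library per line. It was chosen by these values and held 4.43 and 4.58 FPKM in HGC-27, so it is not ranked against the other plaque genes.

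**Figure D4:**
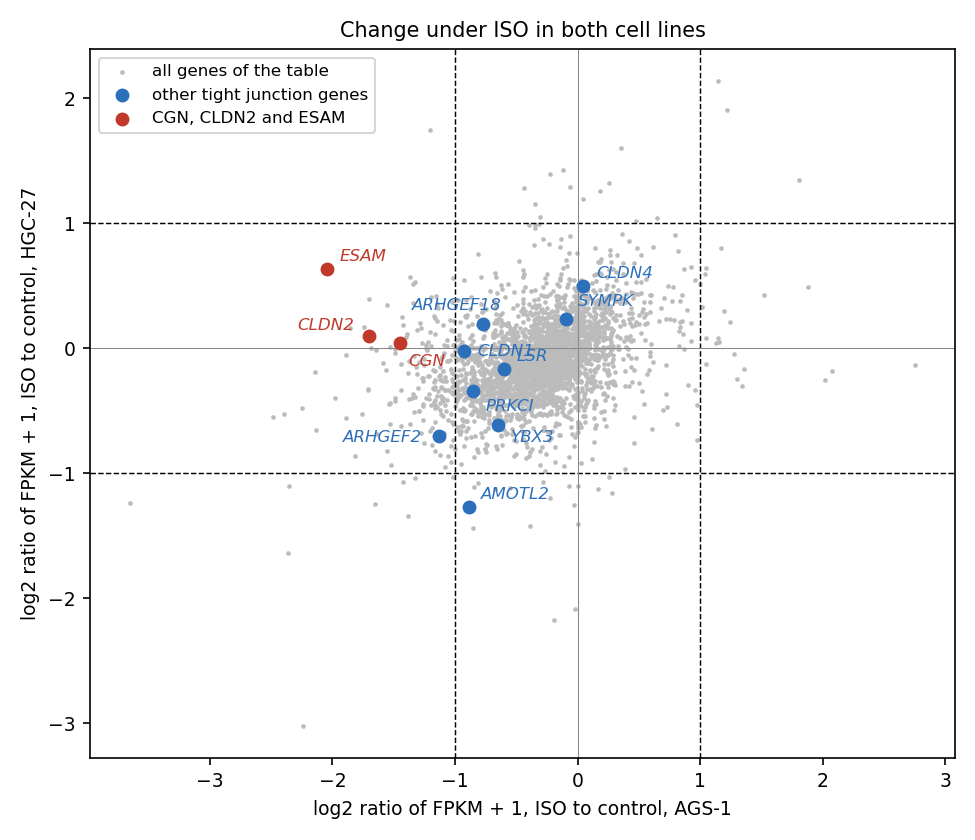
Log2 ratio of FPKM + 1 with ISO to control in AGS-1 (horizontal axis) and in HGC-27 (vertical axis) for all 2897 genes, with dashed lines at 2-fold and 1 library per condition. ESAM, CLDN2 and CGN lie left of the 2-fold line in AGS-1 and at or above 0 in HGC-27, while ARHGEF2 and AMOTL2 lie below 0 in both.

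Partners of the junction in the cell cortex were described from lists too. Of 13 listed genes of the junctional actin and myosin belt, to which cingulin binds, all had a log2 ratio below 0 in both lines. Of all genes 78.6% (AGS-1) and 64.2% (HGC-27) were below 0. The list had medians of −0.69 (AGS-1) and −0.26 (HGC-27) against −0.29 and −0.11 for all genes. With median-of-ratios scaling 11 of the 13 were below 0 in each line, next to 53.1% and 56.5% of all genes. With upper-quartile scaling 10 of the 13 (AGS-1) and 9 of the 13 (HGC-27) were below 0, next to 38.8% and 45.3% of all genes. Of the 13 listed genes 5 fell 2-fold in AGS-1 (6.63% of all genes did), led by VASP, an actin filament elongator (191.8 to 57.9 FPKM, −1.71), and the cytoplasmic actins ACTB (1390 to 513 FPKM, −1.44) and ACTG1 (644 to 292 FPKM, −1.14). With either rescaling 2 of these falls, VASP and ACTB, still passed 2-fold. None fell 2-fold in HGC-27 (0.932% of all genes did), where the myosin light chain MYL9 came closest at −0.95 and passed 2-fold with a pseudocount of 0.1 FPKM. By limma 1 gene of this list, MYL9, was lower in both lines together (−1.02, limma adjusted p = 0.0325), next to 0.832% of tested genes. With either rescaling no gene was called.

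Adherens junction genes, which hold neighbouring cells together below the tight junction, had medians of −0.83 (AGS-1) and −0.31 (HGC-27), against −0.29 and −0.11 for all genes, over 9 listed genes. In AGS-1 all 9 were below 0 under each scaling. Of all genes 78.6% were below 0 in AGS-1 as deposited, 53.1% with median-of-ratios and 38.8% with upper-quartile scaling. Of the 9 listed genes 4 fell 2-fold in AGS-1, next to 6.63% of all genes, CTNNAL1, a relative of α-catenin (69.1 to 13.8 FPKM, −2.25), AJUBA, a LIM protein of junctions (−1.38), VCL, the actin linker vinculin (−1.11), and PVR, a nectin-like adhesion molecule (−1.10). CTNNAL1 and AJUBA still passed 2-fold with median-of-ratios scaling, and CTNNAL1 alone with upper-quartile scaling. AJUBA also fell 2-fold in HGC-27 (−1.34), as did 0.932% of all genes. It was the gene of this list called by limma for the shared change (−1.36, limma adjusted p = 0.00633), next to 0.832% of tested genes called lower. That call was lost with either rescaling. Of 5 listed desmosome genes (medians −0.44 and −0.16) 1 fell 2-fold in AGS-1, PPL, a plakin of the desmosomal plaque (59.8 to 24.8 FPKM, −1.24), though not with either rescaling, and none in HGC-27.

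Genes whose profile over the 4 libraries was closest to each of the 3 were found by Euclidean distance of centred log2(FPKM + 1). For CGN these included RHOD (distance 0.250), RHPN2, ETS2 and EGFR (0.358). For CLDN2 they were GSTM4 (0.182), DUSP6, PLAAT3, GCNT3 and GPRC5A (0.453). For ESAM, whose profile had no neighbour as close, they were PYGB (0.519), PIM1, SPAG9, RAB20 and PPP1R2 (0.692). The 3 genes were not among each other's closest, with distances of 1.08 between CGN and ESAM, 2.27 between CGN and CLDN2 and 3.20 between CLDN2 and ESAM. RHOD, a small GTPase, stood at 20.4 FPKM in the AGS-1 control and 8.19 FPKM with ISO, and held 0.240 and 0.283 FPKM in HGC-27. GSTM4, a glutathione transferase, stood at 79.0 FPKM in the AGS-1 control and 27.4 FPKM with ISO, and was at 0.0605 and 0.0307 FPKM in HGC-27. Likeness over 4 libraries rests mainly on the difference between the lines and on the AGS-1 pair.

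Neighbouring genes give a local comparison. Within 100 kb of CGN the table held TUFT1 (log2 ratios −0.36 for AGS-1, −0.25 for HGC-27) and POGZ (−0.10 and −0.09), neither past 2-fold. MORC4 overlaps CLDN2 on the opposite strand with 0 shared exon bases, and went from 41.4 to 28.9 FPKM in the AGS-1 pair (−0.50) and from 7.88 to 8.23 FPKM in the HGC-27 pair (0.06). MORC4 had 958 and 846 fragments in the HGC-27 libraries, in which CLDN2 had 0 and 4. RIPPLY1, also on the opposite strand, shares 341 exon bases with CLDN2, and whether fragments were counted by strand is not given in the sources used here, so reads of that stretch cannot be assigned to 1 gene with certainty. RIPPLY1 itself was not analysed here. No other gene of the table lay within 100 kb of ESAM, and AP000866.2, antisense to it, shares 0 exon bases with it.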

How the data were processed

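RNA-seq of 4 samples was analysed, 1 library for each of AGS-1 and HGC-27 as untreated control and with ISO. The authors deposited 1 table of FPKM values with gene length and coordinates. Its unit follows the study's plots. The submitters' processing notes name CASAVA 1.8 and HISAT2, and how the 2897 genes were selected, the counting tool and its strand setting are not given in the sources used here. Library totals were between 15235004 and 20199425 fragments, and counting intervals leave out the variation between cultures.

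Fragments were recovered from FPKM times gene length and served for depth and intervals. Ratios used log2(FPKM + 1), and 2-fold either way counted as a change, without a test. Linear models (limma version 3.58.1 under R version 4.3.3, lmFit followed by eBayes with a mean-variance trend) took cell line and treatment as terms over genes averaging at least 1 FPKM, at a Benjamini-Hochberg adjusted p of 0.05. The script was tested on simulated data. With both terms in the model, the 1 residual degree of freedom is the difference between the lines in their ISO response. The p-values set a change against that difference, moderated over genes, and not against the spread between cultures. CGN, CLDN2 and ESAM and the 10 gene lists were chosen with earlier results of these data known. Named genes were these 3, the other listed tight junction genes, markers, the leading 2-fold changes of the other lists, the 5 closest profiles, and genes within 100 kb. PVR, MYL9, YAP1, FOSL1, ELF3 and SP1 fall outside this rule and were picked once their values had been seen. Alternatives were pseudocounts of 0.1 and 5 FPKM, median-of-ratios and upper-quartile scaling, other filters (none, 10 FPKM), and no block. Other steps ran in Python 3.11.15 (scipy 1.17.1, pandas 2.3.3, numpy 2.4.6, matplotlib 3.10.9). Promoter sequences are from RefSeq on GRCh38.p14, and gene models from GENCODE 29. No promoter of ESAM and no protein sequence was used, and 1 gene close in profile to CGN is not reported here.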

Additional observations from a re-analysis of the deposited data

Results flagged for a closer look

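Of the 12 tight junction genes 5 had ISO ratios of opposite sign in the lines, and for 3 of them, described here, the counting intervals excluded no change in both lines. The share of all genes with opposite signs was not counted, and CGN, CLDN2 and ESAM were chosen by these values. Nothing is read from these counts. For CGN and CLDN2 the HGC-27 values overlapped within counting error. Each ratio rests on 1 library per condition, and these differences were not tested. The log2 ratio of ESAM was −2.05 for AGS-1 against 0.63 for HGC-27, a difference of −2.68. The directions were opposite in 5 of 5 settings of pseudocount and scaling, and the HGC-27 ratio rests on 96 and 153 fragments. CLDN4, whose ratio was above 0 in both lines, stood at 0.50 in HGC-27 (0.26 to 0.76), on 88 and 138 fragments. For ARHGEF18 the difference was −0.97 (−0.77 for AGS-1, 0.19 for HGC-27), also opposite in 5 of 5 settings. The SYMPK difference was −0.33 (−0.10 and 0.24), opposite in 3 of 5 settings, and with either rescaling the directions were the same. With 1 library per condition, a difference between lines and a difference between single cultures cannot be told apart.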

How the results depend on the processing

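Of 144 values recomputed under an alternative, 83 stayed within their limits and 61 moved. A reversal could be scored only for log2 ratios of at least 1 in size, and 0 were scored. Counts of genes could not be scored as reversed, so this 0 says nothing about them. With upper-quartile scaling the 24 rises and 192 falls in AGS-1 became 60 and 45. The falls of CGN, CLDN2 and ESAM in AGS-1 passed 2-fold in each setting. With a pseudocount of 5 FPKM their AGS-1 log2 ratios were −1.34, −1.57 and −1.64, that of ESAM in HGC-27 was 0.28, and AGS-1 stood above HGC-27 by 3.29 (control) and 1.93 (ISO) for CGN, 4.19 and 2.60 for CLDN2, and 2.54 and 0.62 for ESAM. With 0.1 FPKM those differences were 4.27 and 2.75, 9.75 and 7.25, and 4.28 for the ESAM control, and CLDN2 in HGC-27 had a ratio of 0.75, which rests on 4 fragments. Median-of-ratios scaling gave −1.17, −1.43 and −1.78 in AGS-1, and line differences of 3.83 for the CGN control and 6.26 and 4.73 for CLDN2. Upper-quartile scaling gave −1.03, −1.29 and −1.64, and line differences of 3.68 (CGN control), 6.12 and 4.73 (CLDN2) and 3.38 (ESAM control).

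Counts of genes moved more. Genes 2-fold lower in AGS-1 numbered 72 by median-of-ratios and 45 by upper-quartile scaling (192 as deposited), those higher 50 and 60 (24), and of the 9 other tight junction genes 0 were lower with either (1). In HGC-27, 46 and 27 genes were lower and higher with 0.1 FPKM, 15 and 26 with upper-quartile scaling, and 16 lower with 5 FPKM, where 0 of the 9 were lower. By limma, the shared change called 99 lower and 8 higher genes with 0.1 FPKM (2 of the 9 lower), 9 lower with 5 FPKM (0 of the 9), 4 lower without a filter (0 of the 9), and 93 lower and 11 higher with a mean of at least 10 FPKM (2 of the 9). Median-of-ratios and upper-quartile scaling called 0 genes in either direction (smallest limma adjusted p 0.0517 and 0.0912), 0 of the 9 included. The cause of these shifts was not tested.

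The cell line paired control and ISO libraries. Without this replicate block limma called 0 lower and 0 higher genes for the shared change (15 at an unadjusted p under 0.05), and 0 of the 9 tight junction genes. With treatment left out of the comparison of lines, 0 of the 9 were lower (1 with it) and 5 higher (7) in AGS-1. Leaving out a library was not possible within a line, where each condition has 1. Depth limited CLDN2 in HGC-27 (0 and 4 fragments) and, less so, ESAM there.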

Other observations

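Of 27 transcription factors written down as regulators named with claudin and epithelial genes, 11 were in the table, and 0 of them changed 2-fold in AGS-1, where 6.63% of all genes fell and 0.828% rose, so that nothing is read from this count. Their median log2 ratio in AGS-1 was −0.25, close to that of all genes (−0.29), and 0.02 with upper-quartile scaling, by which the median of all genes was 0.09. YAP1, the effector of Hippo signalling, went from 80.7 to 41.4 FPKM there (−0.95), KLF5, an epithelial zinc finger factor, from 240.7 to 133.4 FPKM (−0.85) and FOSL1, an AP-1 subunit, from 89.6 to 55.4 FPKM (−0.68). ELF3, an epithelial ETS factor, had a ratio of −0.18 and SP1, which reads GC boxes, of 0.10. In HGC-27, where 0.932% of all genes fell 2-fold, KLF5 (26.6 to 11.8 FPKM, −1.11) and TWIST1, a repressor of epithelial genes (334 to 155 FPKM, −1.10), fell 2-fold, though neither did with upper-quartile scaling.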
